A study of Mus musculus with 32 samples.

Results

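The 34 genes described here encode proteins of synaptic vesicles and of the machinery that releases transmitter from nerve terminals. They were taken from a fixed list of symbols, which was chosen with earlier results of these data known. All 34 were found among the 22337 genes of the study's RNA-seq tables. By role they were 11 genes of the vesicle membrane or its surface, 4 synaptotagmins, 8 genes of the fusion machinery, 6 genes of the active zone, 3 vesicular transmitter transporters and 2 genes of vesicle retrieval.

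The study asked what transcranial near-infrared light does to male 5xFAD mice, an amyloid model in which human transgenes, mutated APP among them, are expressed in neurons from the Thy1 promoter. All mice were 6 months old, and WT mice lacked the transgenes. Light-treated 5xFAD mice (5xFAD + light) were illuminated through the scalp for 10 min, 3 times a week for 4 weeks, whereas the controls had the anesthesia and shaving without it. RNA was sequenced from the hippocampus (HPC) of 4 mice per group, from the meninges of 4 WT, 3 5xFAD and 3 5xFAD + light mice, and from meningeal lymphatic endothelial cells (mLECs) sorted from the meninges of 4, 3 and 3 such mice as live CD45- CD31+ PDPN+ cells, with 1 mouse per sample.

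A vesicle is filled with transmitter by a transporter in its membrane, tethered and primed at the active zone by proteins such as Bassoon, Piccolo, RIM and Munc13, and fused by the SNARE proteins SNAP-25, VAMP and syntaxin. Synaptotagmins sense the calcium that triggers fusion, complexins clamp and assist the SNAREs, and NSF takes the spent SNARE complex apart. In the hippocampus these transcripts come mainly from excitatory pyramidal and granule cells and from GABAergic interneurons, so a bulk sample sums over cell types. Fewer cells of a type and less RNA per cell cannot be told apart in such samples.

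Many neuronal genes carry an RE1 element, the binding site of the repressor REST, near their start. The letters TTCAGCACC, one side of that element, were searched for on both strands of windows running from 250 bases before to 50 bases after the start (RefSeq, GRCm38.p6), of which 27 of the 34 genes had one. Some genes had several windows, 37 in all for the 27. The letters were present in 2 of the 37, those of Syn1 and Unc13a, and in 0.371% of all 32851 windows. Both are shown because Unc13a gave the clearest genotype difference below and Syn1 encodes the vesicle protein synapsin I. Each line is 30 bases, 5′ to 3′, with the RE1 letters in capitals. The Syn1 site (chrX:20921126-20921155, minus strand) lies 224 to 232 bases before the first transcribed base, and the Unc13a site (chr8:71671722-71671751) reads on the plus strand, opposite to the gene, over bases 23 to 31 of the transcript.
Syn1: tcggaTTCAGCACCgcggtcagagccttcg
Unc13a: gtcgcTTCAGCACCgggggcgcggacagcg
A match describes these letters only. Among the other motifs searched, the CRE palindrome TGACGTCA was in 1 of the 37 windows, that of Syn1 (1.79% of all windows), TATAAA in 2, both of Sv2b (13.6%), GGGCGG in 22 of the 37 windows (35.7% of all) and GGACAG in 11 of the 37 (22.2% of all).

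Total counts per sample were 13952825 to 23856476 for HPC, 6601143 to 14708202 for meninges and 14231415 to 24207326 for mLECs. A pair of HPC libraries stood apart by markers of neuron types. The 5xFAD replicate 3 had a summed FPKM (fragment counts scaled to transcript length and library size) of CA3 pyramidal cell markers of 161, against 330 to 478 in the other HPC samples. The 5xFAD + light replicate 2 had 354 for thalamus and habenula markers, against 58.7 to 135. Choroid plexus sums were 2804 in WT replicate 2 and 3196 and 2931 in 5xFAD replicates 1 and 2, against 38.9 to 693 elsewhere. Pituitary sums were 86.2, 817 and 106 in 5xFAD replicates 1 to 3. They were 223 in 5xFAD + light replicate 1 and 2.33 to 7.34 elsewhere. Leaving out the pair kept all of these libraries but 5xFAD replicate 3. In meninges, WT replicate 1 had the highest neuron marker sum, 182, and 5xFAD replicate 4 the lowest pineal marker sum, 257. Among the mLEC samples, WT replicate 2 was at 0 FPKM for the lymphatic genes Lyve1, Prox1 and Pdpn and at 3.54 for Ccl21a, and WT replicate 4 at 0 for Lyve1, Pdpn and Ccl21a. Without 5xFAD replicate 3 and 5xFAD + light replicate 2, the number of the 34 genes called went from 1 to 3 for 5xFAD against WT. For light against WT it went from 3 to 6. Over all 12981 genes the calls went from 1092 to 1128 and from 465 to 655. Each of the 34 genes whose call changed is given below with both values.

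All 34 genes were detected in every HPC sample. They took 1.60% to 1.76% of all counts in WT, 1.32% to 1.56% in 5xFAD and 1.40% to 1.55% in 5xFAD + light, so that no sample of either 5xFAD group reached the lowest WT sample. Markers of CA1 pyramidal cells were separated likewise, with summed FPKM of 153 to 165 in WT, 60.4 to 135 in 5xFAD and 98 to 112 in 5xFAD + light. The sum of 10 general neuron markers was 1165 to 1236, 1115 to 1245 and 1020 to 1137. The part of either in the share was not tested. By mean WT FPKM, Snap25 stood highest with 1263, followed by Rab3a with 684, Syp with 661 and Vamp2 with 651, of which the last 3 did not differ beyond their spread. Sv2c was lowest with 1.35, next to Slc17a6 with 3.06 and Syn3 with 3.10.

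Between 5xFAD and WT mice, 1 of 34 genes, Unc13a, fell at an adjusted p below 0.05 (edgeR quasi-likelihood test), which is 2.94% of them against 8.41% of all 12981 genes tested in HPC. By point estimate 21 were lower and 13 higher, and the median log2 fold change was −0.15, against 0.01 over all genes. An unadjusted p below 0.05 was reached by 14, 12 of them lower, which is 41.2% against 23.8% of all genes. The FPKM values of 5xFAD and WT did not overlap for 5 genes, or 14.7%, against 14.5% of all genes. The differences were thus small, mostly of one sign, and mostly short of the threshold.

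**Figure D1:**
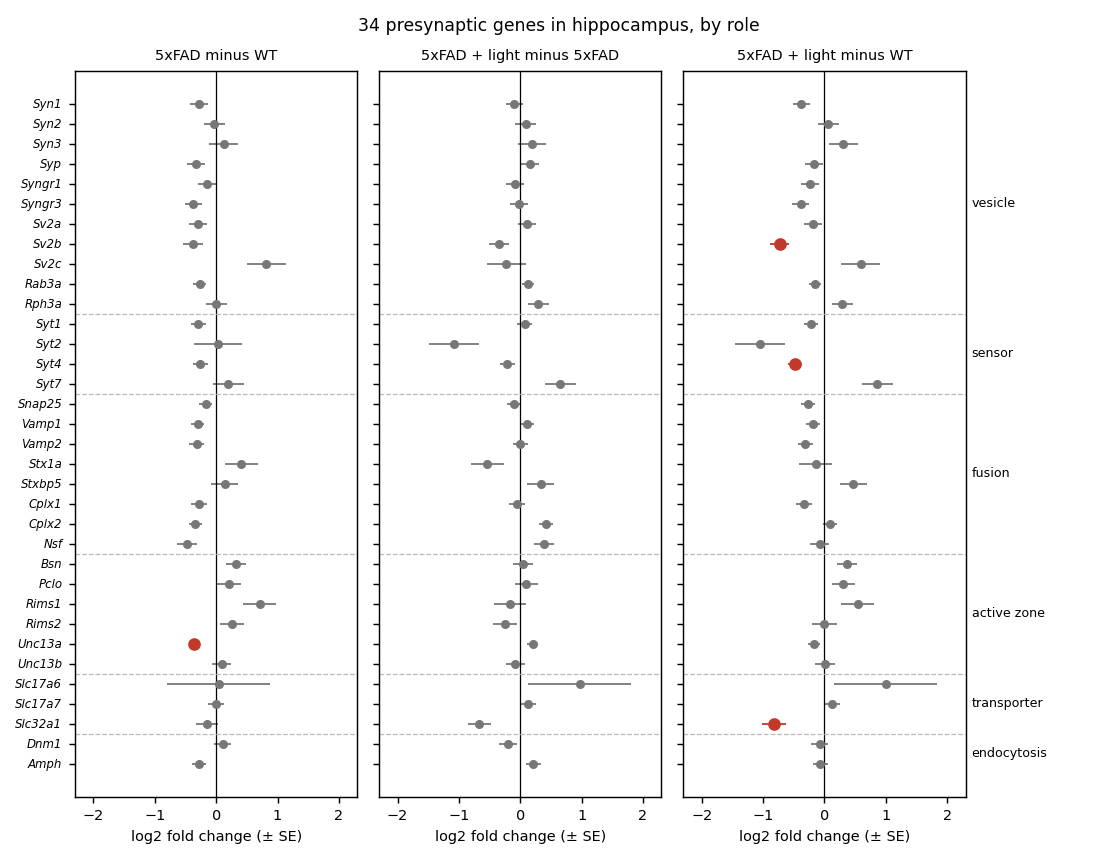
Log2 fold change (x axis, point) with its standard error (bar) of the 34 genes in hippocampus, grouped by role, for 5xFAD minus WT, 5xFAD + light minus 5xFAD and 5xFAD + light minus WT. Red points passed an adjusted p of 0.05: Unc13a at −0.36 in the first comparison, none in the second, and Sv2b, Syt4 and Slc32a1 in the third.

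Between light-treated and untreated 5xFAD mice, 0 of 34 genes passed in edgeR, against 0.439% of all genes, and 6 had an unadjusted p below 0.05, or 17.6% against 18.3% of all genes. DESeq2 called 2 of them, Cplx2 and Slc32a1, and 641 of all 12981 genes. The median was 0.06 against −0.02 over all genes, with 19 genes higher and 15 lower. Values of the groups did not overlap for 1 gene, Cplx2, or 2.94% against 7.63% of all genes.

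Between light-treated 5xFAD and WT mice, 3 of 34 fell below the threshold: Sv2b, Slc32a1 and Syt4. That is 8.82% against 3.58% of all genes. The groups did not overlap for 14 genes, 11 lower and 3 higher in the light-treated mice, or 41.2% against 14.9% of all genes. The median was −0.11 against −0.00, and only 0 or 1 of the 34 passed when any single WT or light-treated sample was left out. This comparison and the first share the WT samples, and the first and second share the 5xFAD samples.

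Unc13a (ENSMUSG00000034799, chr8:71624417-71671757, minus strand, GRCm38) encodes Munc13-1, which primes docked vesicles at the active zone. Its FPKM was 15.1, 14.1, 13.9 and 15.9 in WT, 12.6, 10.2, 9.09 and 11.7 in 5xFAD, and 12.9, 14.2, 11.7 and 12.3 in 5xFAD + light. Every 5xFAD sample lay below every WT sample, and the light-treated samples lay between or across them. Its log2 fold change was −0.36 (SE 0.09, adjusted p = 0.0249) for 5xFAD against WT, 0.20 (SE 0.09, adjusted p = 0.273) for light against 5xFAD and −0.17 (SE 0.09, adjusted p = 0.398) for light against WT. It was −0.32 (adjusted p = 0.0404) without the 2 HPC libraries that stood apart, and its adjusted p rose to between 0.0505 and 0.09 when WT replicate 1, WT replicate 4 or 5xFAD replicate 2 was left out.

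The other 5 active zone genes were higher in 5xFAD by point estimate, unlike Unc13a, and none passed in edgeR. Without the 2 libraries that stood apart Rims2 went from 0.26 to −0.04, Unc13b from 0.09 to −0.02, Pclo from 0.21 to 0.00 and Bsn from 0.32 to 0.16. Rims1, which encodes RIM1, had 10, 9.43, 10.6 and 10.2 in WT, 12.9, 15.7, 29.4 and 10.1 in 5xFAD and 18, 13.2, 16 and 14.8 in 5xFAD + light. The 5xFAD replicate 3 stood far above its group, whereas all light-treated samples exceeded all WT samples. Its log2 fold change against WT was 0.71 (SE 0.27, adjusted p = 0.125) in 5xFAD and 0.54 (SE 0.27, adjusted p = 0.335) in 5xFAD + light. Without the 2 libraries that stood apart these became 0.28 (adjusted p = 0.236) and 0.62 (adjusted p = 0.0169). Bsn and Pclo, which encode the scaffolds Bassoon and Piccolo, ranged from 9.98 to 11.3 and from 7.27 to 8.38 in WT and from 12.3 to 18.7 and from 8.34 to 12.4 in 5xFAD + light. Bsn groups did not overlap, and the adjusted p were 0.259 and 0.441. Rims2 and Unc13b gave adjusted p of 0.467 and above in all 3 comparisons.

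**Figure D2:**
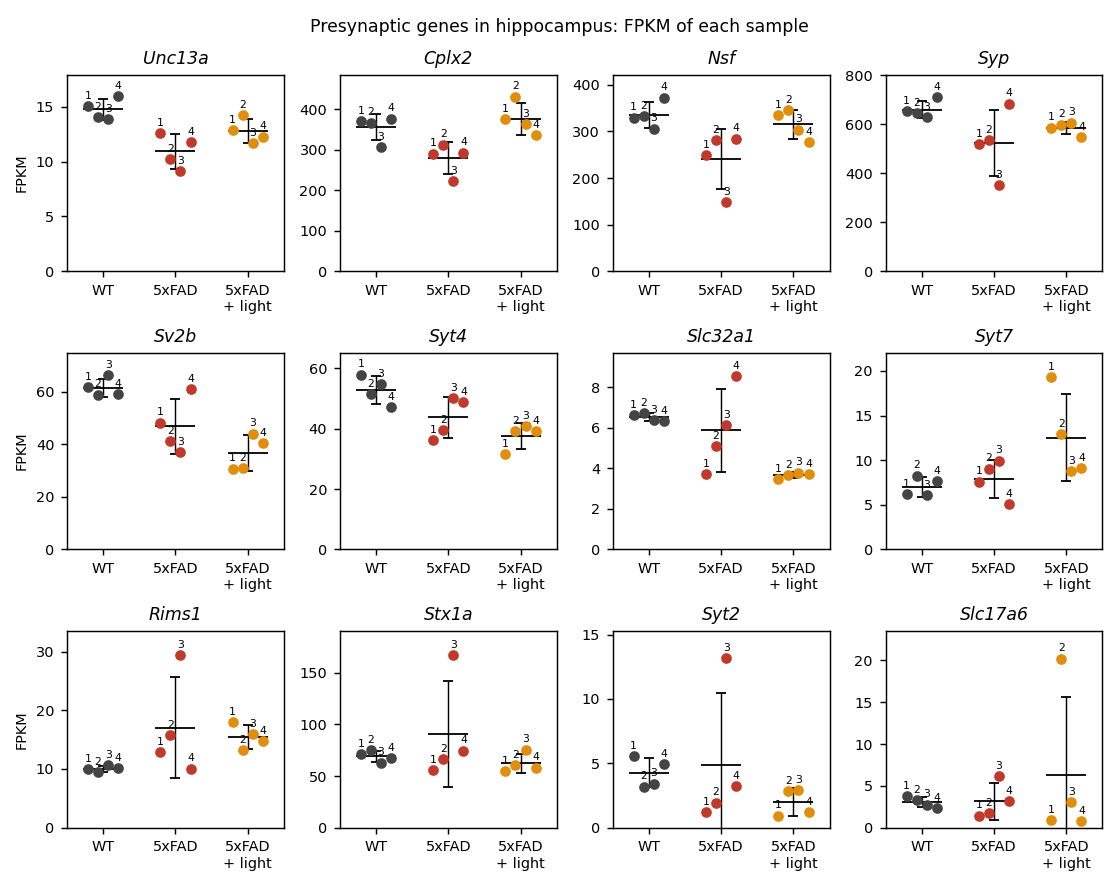
FPKM (y axis) of 12 genes in each hippocampus sample of the WT, 5xFAD and 5xFAD + light groups, with the replicate number above each point, the mean as a horizontal line and the SD as bars. Slc32a1 lies between 3.48 and 3.79 in all light-treated samples, the 5xFAD replicate 3 is highest for Rims1, Stx1a and Syt2, and the light-treated replicate 2 alone reaches 20.2 for Slc17a6.

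In the fusion machinery, 6 of 8 genes were lower in 5xFAD than in WT by point estimate, with a median log2 fold change of −0.29. None passed in edgeR. DESeq2 called 2 of them, Cplx2 and Nsf, and 1721 of all 12981 genes. Cplx2 (chr13:54371349-54383917, plus strand), which encodes complexin 2, had 371, 367, 307 and 377 in WT, 291, 313, 222 and 293 in 5xFAD and 376, 431, 363 and 336 in 5xFAD + light. Every light-treated sample lay above every untreated 5xFAD sample and the light-treated and WT values overlapped. Fold changes on the log2 scale were −0.34 (SE 0.11, adjusted p = 0.0884) for 5xFAD against WT, 0.42 (SE 0.11, adjusted p = 0.0999) for light against 5xFAD and 0.09 (SE 0.11, adjusted p = 0.745) for light against WT. DESeq2 gave adjusted p of 0.0271 and 0.0105 for the first and second. Without the 2 libraries that stood apart edgeR gave −0.24 (adjusted p = 0.109) and 0.28 (adjusted p = 0.217) for these.

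Nsf was also lowest in untreated 5xFAD mice. Its FPKM was 329, 332, 306 and 372 in WT, 249, 282, 148 and 285 in 5xFAD and 335, 345, 304 and 277 in 5xFAD + light. Untreated 5xFAD differed by −0.47 (SE 0.16, adjusted p = 0.0965) from WT and light-treated mice by 0.39 (SE 0.16, adjusted p = 0.234) from untreated 5xFAD on the log2 scale, which became −0.30 and 0.18 without the 2 libraries that stood apart. DESeq2 gave an adjusted p of 0.0375 for the first.

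The vesicle SNAREs Vamp1 and Vamp2 and the plasma membrane SNARE Snap25 were lower in both 5xFAD groups by point estimate. Vamp1 was 61.5, 56.1, 59.2 and 64.1 in WT, 39.8, 46.5, 56.2 and 52.2 in 5xFAD and 48.3, 62.6, 51.1 and 47.5 in 5xFAD + light. Vamp2 was 704, 622, 584 and 693, then 504, 547, 417 and 609, and then 458, 546, 580.4 and 499. A single 5xFAD sample in each case overlapped WT. The log2 fold change of 5xFAD against WT was −0.30 (SE 0.11, adjusted p = 0.113) for Vamp1 and −0.32 (SE 0.12, adjusted p = 0.122) for Vamp2. Vamp1 passed without 5xFAD replicate 3 (−0.38, adjusted p = 0.0393) and without both libraries that stood apart (−0.38, adjusted p = 0.0239). For Vamp2 it was −0.31 (SE 0.12, adjusted p = 0.198) in light-treated mice against WT, with no overlap. Snap25 was 1269, 1175, 1345 and 1263 in WT, 942, 997, 1333 and 1249 in 5xFAD and 979.8, 1041, 1114 and 1006 in 5xFAD + light. Its light-treated samples were all below WT, with a log2 fold change of −0.27 (SE 0.11, adjusted p = 0.248).

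Cplx1, which encodes complexin 1, did not show the light-treated values of Cplx2. It was 399, 349, 343 and 421 in WT, 261, 299, 301 and 381 in 5xFAD and 242, 327, 344 and 276 in 5xFAD + light, with log2 fold changes of −0.28 (SE 0.13, adjusted p = 0.218) and −0.34 (SE 0.13, adjusted p = 0.210) against WT. Whether the complexins differed in their response was not tested. Stx1a, the plasma membrane partner of Snap25, was 71.2, 75.3, 63 and 67.5 in WT, 56, 66.3, 167 and 74.6 in 5xFAD and 55, 60.6, 75.7 and 58.1 in 5xFAD + light. Its log2 fold change of −0.54 (SE 0.27, adjusted p = 0.314) for light against 5xFAD became −0.03 without the 2 libraries that stood apart. Stxbp5, which encodes the SNARE-binding tomosyn 1, was 0.47 higher in light-treated mice than in WT on the log2 scale (SE 0.22, adjusted p = 0.301).

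Sv2b (ENSMUSG00000053025, chr7:75114894-75309262, minus strand) encodes a glycoprotein of the vesicle membrane. Its FPKM was 62, 59, 66.3 and 59.1 in WT, 48.3, 41.3, 37.2 and 61 in 5xFAD and 30.9, 30.9, 44.2 and 40.6 in 5xFAD + light. All light-treated samples were below all WT samples, and among the 5xFAD samples replicate 4 lay within the WT range. On the log2 scale it differed by −0.73 (SE 0.16, adjusted p = 0.0212) for light against WT, −0.38 (SE 0.16, adjusted p = 0.168) for 5xFAD against WT and −0.35 (SE 0.16, adjusted p = 0.274) for light against 5xFAD. The call of Sv2b was lost, at adjusted p from 0.0506 to 0.0703, without WT replicate 1, 3 or 4 or light-treated replicate 1 or 2. Its relatives did not follow one pattern. Sv2a gave −0.30 in 5xFAD and −0.19 in 5xFAD + light against WT, and Sv2c, near 1 FPKM, was 1.22, 1.92, 0.83 and 1.44 in WT, 4, 1.48, 1.75 and 1.85 in 5xFAD and 2.67, 2.28, 1.38 and 1.65 in 5xFAD + light, with a log2 fold change of 0.82 (SE 0.32, adjusted p = 0.142) for 5xFAD against WT.

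Syp encodes synaptophysin, the vesicle protein most used to stain terminals. Its FPKM was 656, 646, 629 and 713 in WT, 519, 537, 353 and 685 in 5xFAD and 587, 599, 607 and 549 in 5xFAD + light. The 5xFAD samples spread from well below WT to within it, while the light-treated samples lay close together, all below WT. On log2(FPKM + 1), an exact two-sided permutation test, whose smallest possible p is 0.0286 at this size, gave −0.37 (p = 0.114, adjusted over the 3 comparisons 0.171) for 5xFAD against WT, 0.20 (p = 0.429) for light against 5xFAD and −0.17 (p = 0.0286, adjusted 0.0858) for light against WT. In edgeR the log2 fold changes were −0.33, 0.16 and −0.17 (adjusted p = 0.188, 0.575 and 0.611). Without the 2 libraries that stood apart they were −0.18, 0.02 and −0.16 (adjusted p = 0.295, 0.943 and 0.383).

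Rab3a, the vesicle GTPase, was 679, 656, 657 and 743 in WT, 507, 589.5, 493.44 and 672 in 5xFAD and 615, 615, 647 and 572 in 5xFAD + light. The 5xFAD replicate 4 alone reached the WT range, and the log2 fold change against WT was −0.27 (SE 0.10, adjusted p = 0.122) in 5xFAD and −0.15 (SE 0.10, adjusted p = 0.479) in 5xFAD + light. DESeq2 gave an adjusted p of 0.0434 for the 5xFAD difference. Syngr3, a synaptogyrin, was 154, 157, 136 and 162 in WT, 103, 133, 85.1 and 147 in 5xFAD and 117, 123, 119 and 104 in 5xFAD + light. Its light-treated samples were all below WT, by −0.39 on the log2 scale (SE 0.14, adjusted p = 0.156, or −0.40 and 0.0477 without the libraries that stood apart), and the untreated 5xFAD group differed from WT by −0.37 (SE 0.14, adjusted p = 0.113). Syn1 was 265, 237, 235 and 270.3 in WT, 229.8, 204, 150.2 and 243 in 5xFAD and 158, 201, 221 and 189.5 in 5xFAD + light. Again no light-treated sample reached WT, with a log2 fold change of −0.38 (SE 0.14, adjusted p = 0.199). Syn2, Syn3 and Rph3a gave adjusted p of at least 0.381 throughout.

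The 5xFAD replicate 4 lay within or near the WT range for many of these genes. Without it, 7 of the 34 genes passed between 5xFAD and WT, as did 1689 of all 12981 genes, against 1092 with it. Of the 7, Syp, Syngr3, Rab3a, Sv2a, Sv2b and Unc13a were lower and Rims1 higher.

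Syngr1 behaved differently by count and by FPKM, and is described because its values drew attention. By count its log2 fold change for 5xFAD against WT was −0.15 (SE 0.15, adjusted p = 0.581). Its FPKM was 132, 122, 119.9 and 136 in WT, 202, 161, 139 and 198 in 5xFAD and 125, 136, 199 and 172 in 5xFAD + light, so every 5xFAD sample was above every WT sample, by 0.45 on the log2 scale. The scales part because FPKM divides by the effective length, the mean length of a gene's transcripts weighted by their estimated abundance. Computed back from count, FPKM and total, the effective length of Syngr1 was 3694, 3726, 3604 and 3756 bases in WT, 2044, 2421, 2309 and 2833 in 5xFAD and 2656, 2971, 2355 and 2238 in 5xFAD + light. All 8 samples of both 5xFAD groups were shorter than all WT samples. The difference was −0.63 on the log2 scale for 5xFAD and −0.54 for 5xFAD + light, given without a test because the gene was chosen for these values. Only 8 and 7 of 12916 genes, Syngr1 included, had a difference as low. Effective lengths did not overlap between 5xFAD and WT for 2.92% of these genes and for 1 of the 34, Syngr1. Between 5xFAD + light and WT they did not overlap for 23.2% of genes, 2868 of them longer and 124 shorter. Of the 34 these were 13, of which 11 were longer. Those 11 shifts were small beside that of Syngr1. Syp, for example, had 2631 to 2637 bases in WT and 2639 to 2657 in 5xFAD + light, and Rph3a 3945 to 4024 and 4076 to 4177. In meninges, Syngr1 measured 1667 to 2669 bases over the 3 groups. Microglia markers moved with genotype in the same samples, from 160 to 184 in WT to 543 to 896 in 5xFAD and 422 to 771 in 5xFAD + light in summed FPKM of 8 markers, all 8 called higher in 5xFAD, as did astrocyte markers, from 753 to 891 to 906 to 3224 and 1246 to 1659, with 3 of 6 called higher. Their part in the result was not tested.

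Among the synaptotagmins, Syt4, an isoform that binds calcium weakly, was 58, 51.4, 54.9 and 47.1 in WT, 36.4, 39.6, 50.2 and 48.8 in 5xFAD and 31.5, 39.2, 41 and 39.1 in 5xFAD + light. No light-treated sample reached WT, and the untreated 5xFAD samples fell into a lower and a higher pair. In edgeR the log2 fold change was −0.48 (SE 0.12, adjusted p = 0.0442) for light against WT, −0.26 (SE 0.12, adjusted p = 0.203) for 5xFAD against WT and −0.21 (SE 0.12, adjusted p = 0.363) for light against 5xFAD. Leaving out any 1 WT or light-treated sample gave adjusted p from 0.0516 to 0.151 for light against WT, at log2 fold changes from −0.53 to −0.40. Syt1, the main calcium sensor for fast release in the forebrain, was 230.1, 228, 257 and 244 in WT, 149.85, 214, 227 and 188 in 5xFAD and 213, 198, 203 and 203 in 5xFAD + light. All samples of both 5xFAD groups were below WT, with log2 fold changes of −0.29 (SE 0.12, adjusted p = 0.142) and −0.22 (SE 0.12, adjusted p = 0.359). The first became −0.38 without 5xFAD replicate 3 (adjusted p = 0.0428) and without both libraries that stood apart (adjusted p = 0.0474).

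Syt7, a high-affinity sensor tied to slower release, was the one sensor of the 4 that was higher in light-treated mice than in WT by point estimate. It was 6.17, 8.28, 6.05 and 7.63 in WT, 7.61, 9.06, 9.95 and 5.08 in 5xFAD and 19.3, 12.9, 8.81 and 9.14 in 5xFAD + light. All light-treated samples exceeded WT, and the pair of replicates 1 and 2 exceeded every other HPC sample. Light-treated mice differed by a log2 fold change of 0.86 (SE 0.25, adjusted p = 0.0851) against WT and 0.65 (SE 0.25, adjusted p = 0.190) against 5xFAD. DESeq2 gave an adjusted p of 0.0142 against WT. Syt2, the fast sensor of the hindbrain and of parvalbumin interneurons, was 5.55, 3.19, 3.42 and 4.91 in WT, 1.22, 1.95, 13.2 and 3.2 in 5xFAD and 0.94, 2.87, 2.94 and 1.21 in 5xFAD + light. Its log2 fold change was −1.08 (SE 0.40, adjusted p = 0.185) for light against 5xFAD and −1.05 (SE 0.40, adjusted p = 0.202) for light against WT. Without the 2 libraries that stood apart these were −0.64 (adjusted p = 0.295) and −1.23 (adjusted p = 0.0144).

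Slc32a1 (ENSMUSG00000037771, chr2:158610767-158615748, plus strand) encodes VGAT, which fills inhibitory vesicles with GABA or glycine. Its FPKM was 6.64, 6.73, 6.39 and 6.33 in WT, 3.72, 5.11, 6.15 and 8.57 in 5xFAD and 3.48, 3.68, 3.79 and 3.72 in 5xFAD + light. WT and light-treated samples each formed a tight group that did not overlap, and the untreated 5xFAD samples spanned both. Its fold change on the log2 scale was −0.82 (SE 0.19, adjusted p = 0.0229) for light against WT, −0.67 (SE 0.19, adjusted p = 0.112) for light against 5xFAD and −0.15 (SE 0.18, adjusted p = 0.672) for 5xFAD against WT. Leaving out any 1 WT or light-treated sample gave adjusted p from 0.0522 to 0.066 for light against WT, at log2 fold changes from −0.85 to −0.79. The summed FPKM of GABAergic neuron markers was 1727 to 2115 in WT, 1457 to 2291 in 5xFAD and 1066 to 1493 in 5xFAD + light. Within untreated 5xFAD the sum did not follow Slc32a1, at 1853, 1576, 2291 and 1457 in replicates 1 to 4. Much of the sum was Cck, with 1029.9 of 1848 in WT replicate 1. All 9 markers were lower in light-treated mice than in WT by point estimate, and 4 of 9 passed (Dlx1, Gad1, Gad2 and Sst). Dentate granule cell markers went the other way, 179 to 318, 105 to 267 and 307 to 483, with all 8 higher by point estimate after light than in untreated 5xFAD and 1 of 8 called. The part of either in these results was not tested.

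Slc17a7, which encodes the glutamate transporter VGLUT1 of hippocampal and cortical neurons, gave adjusted p from 0.628 to 0.981 and FPKM from 75.9 to 111. Slc17a6, the VGLUT2 transporter of thalamus and brainstem, was 3.81, 3.32, 2.77 and 2.34 in WT, 1.44, 1.75, 6.21 and 3.19 in 5xFAD and 0.95, 20.2, 3.03 and 0.79 in 5xFAD + light. The sample with 20.2 was the one with the high thalamus and habenula markers, and this gene is singled out for that value. Without the 2 libraries that stood apart its log2 fold change for light against 5xFAD went from 0.97 to −0.40.

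For vesicle retrieval, Amph, which encodes amphiphysin, was 66.9, 68.3, 70.2 and 70 in WT, 60.8, 56.6, 42.5 and 64.7 in 5xFAD and 71.5, 64, 65.3 and 59.7 in 5xFAD + light. Every 5xFAD sample lay below WT, by −0.28 on the log2 scale (SE 0.12, adjusted p = 0.150), and light against 5xFAD gave 0.21 (SE 0.12, adjusted p = 0.346). Dnm1, which encodes the fission GTPase dynamin 1, gave adjusted p of at least 0.476.

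A wider list of 89 further genes of the vesicle cycle, 85 of them tested in HPC, gave 2 called higher and 6 called lower in 5xFAD than in WT, 1 called higher in light-treated than in untreated 5xFAD and none called in light-treated mice against WT, where 16 had an unadjusted p below 0.05. The calls were 9.41% of the list against 8.41% of all genes in the first comparison and 1.18% against 0.439% in the second, and the 16 genes were 18.8% against 16.5%. DESeq2 called 12, 4 and 5 of the 85 in the 3 comparisons, and 1721, 641 and 873 of all 12981 genes. The medians of the list were −0.13, 0.04 and −0.10. Ppfia2, the active zone scaffold liprin-alpha-2, was called in the first and second comparison. It was 38.3, 38.2, 37.6 and 39.9 in WT, 26.3, 31.9, 25.2 and 26.6 in 5xFAD and 46.9, 41.6, 34.7 and 38.0 in 5xFAD + light. No 5xFAD sample overlapped either of the other groups, with a log2 fold change of −0.47 (SE 0.10, adjusted p = 0.0103) against WT and 0.55 (SE 0.10, adjusted p = 0.0481) for light against 5xFAD, and the second was lost in 6 of the 8 fits that left out a single sample.

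Of the rest named in that list, Scamp1 at −0.43 (adjusted p = 0.0264), Stxbp5l at −0.48 (adjusted p = 0.0326) and Synj1 at −0.44 (adjusted p = 0.0343) fell in 5xFAD mice, the last encoding synaptojanin 1, which uncoats retrieved vesicles. Syngr2 at 1.32 (adjusted p = 0.00191) and Dnm2 at 0.40 (adjusted p = 0.0300) rose, and both are widely expressed relatives of neuronal genes. Of 17 alternative fits, 11 lost the call of Dnm2, 8 that of Synj1, 7 that of Stxbp5l and 5 that of Scamp1, with adjusted p up to 0.0982, and none lost that of Syngr2. Syngr2 was 6.95 to 10.5 in WT, 16.0 to 29.6 in 5xFAD and 11.3 to 18.7 in 5xFAD + light.

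**Figure D3:**
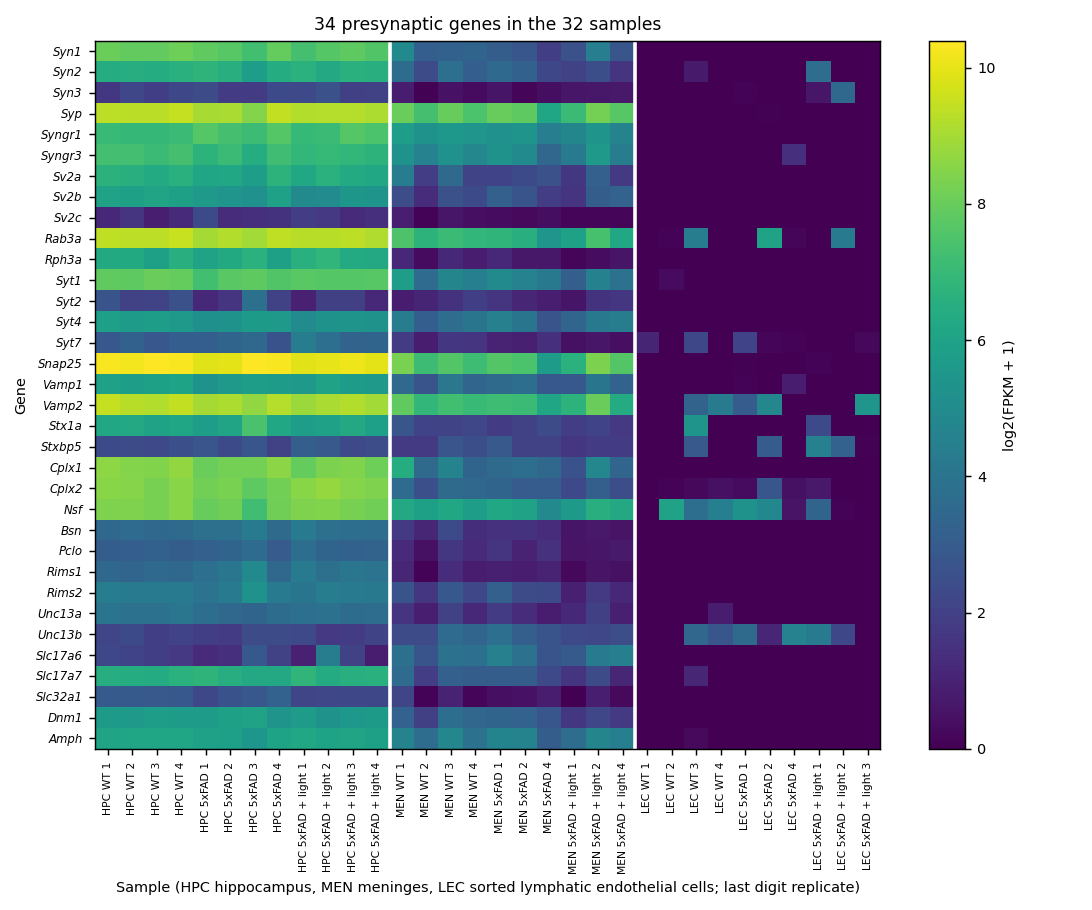
Log2(FPKM + 1) of the 34 genes (rows, grouped by role) in each of the 32 samples (columns: hippocampus HPC, meninges MEN and sorted lymphatic endothelial cells LEC, last digit the replicate). Levels are high in all 12 hippocampus samples, lower in the 10 meninges samples and 0 or scattered in the 10 LEC samples.

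In meninges the 34 genes took 0.120% to 0.381% of counts. Between the WT tissues, 30 of 34 were lower and 2 higher in meninges at an adjusted p below 0.05, or 94.1% against 71.1% of all 14144 genes, and the median was −2.43, against 0.07 over all genes. The fall ran from Rph3a, which encodes rabphilin, at −6.48 (SE 0.45, adjusted p = 7.33e-07) and Cplx2 at −5.31 (SE 0.28, adjusted p = 1.06e-07) to Sv2c at −1.57 (adjusted p = 0.0204). Syp fell less, by 1.72 (SE 0.18, adjusted p = 1.04e-05). The 2 that were higher in meninges were Slc17a6 at 1.84 (SE 0.28, adjusted p = 0.000153) and Unc13b at 1.52 (SE 0.37, adjusted p = 0.00379), which encodes Munc13-2. Syt2 and Stxbp5 did not pass, at −0.76 and −0.31.

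The highest members in meninges were Syp, Snap25, Vamp2, Rab3a and Nsf. Syp was 256, 158, 248 and 171 in WT, 248, 227 and 67.7 in 5xFAD and 133, 295 and 208 in 5xFAD + light. Snap25 was 319, 139, 196 and 143, then 195, 175 and 50.7, and then 97.7, 327 and 195. The lowest sample in each case was 5xFAD replicate 4 and the highest light-treated replicate 2. Vamp2 was 232, 118, 150.05 and 128 in WT, 143, 136 and 70.7 in 5xFAD and 104, 257 and 82.9 in 5xFAD + light. Rab3a was 180.1, 105, 136 and 118, then 111, 93.5 and 41.8, and then 60.9, 162 and 73.2. Nsf was 75.3, 59.3, 71.2 and 54.1, then 71.6, 62.0 and 28.7, and then 47.0, 93.7 and 77.2. All groups overlapped for all 5 genes.

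**Figure D4:**
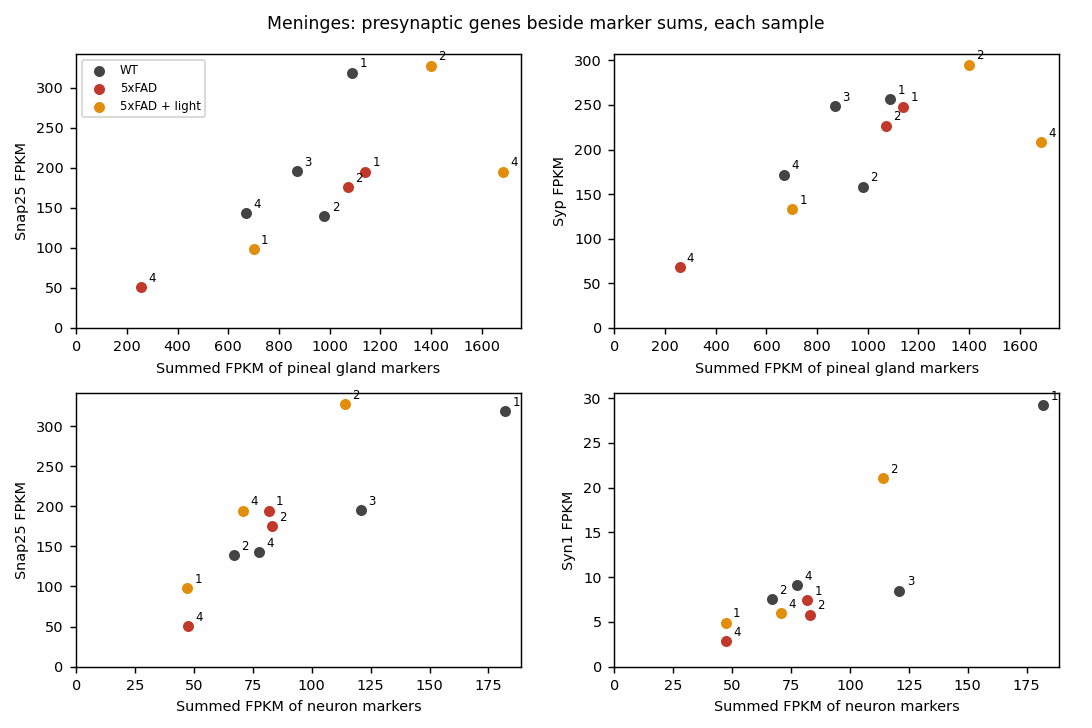
FPKM of Snap25, Syp and Syn1 (y axes) in each of the 10 meninges samples against the summed FPKM of 8 pineal gland markers or 10 neuron markers (x axes), coloured by group and numbered by replicate. The 5xFAD replicate 4 is lowest for Snap25, Syp and the pineal sum, and WT replicate 1 is highest for Syn1 and the neuron sum.

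Pineal gland markers, whose cells also use vesicle and SNARE genes, summed to between 257 and 1684 FPKM in meninges and to between 1.13 and 4.62 in HPC. All meninges samples had these transcripts, in amounts that differed between samples of a group: 1089, 980, 872 and 671 in WT, 1141, 1072 and 257 in 5xFAD and 701, 1399 and 1684 in 5xFAD + light. The part of pineal or neuronal tissue in the levels of the 34 genes was not tested.

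Between 5xFAD and WT meninges, 0 of 31 genes passed, as did 0% of all 14318 genes, and 0 of the 31 had an unadjusted p below 0.05, with 554 genes in all at that level. DESeq2 called none of the 31 either. The median log2 fold change was −0.24 and became 0.18 without WT replicate 1 and 5xFAD replicate 4. Groups did not overlap for 1 gene, Syn1, against 4.85% of all genes, at 29.2, 7.51, 8.48 and 9.07 in WT and 7.39, 5.79 and 2.8 in 5xFAD, with a log2 fold change of −1.34 (SE 0.63, adjusted p = 0.991).

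Between light-treated and untreated 5xFAD meninges, 0 of 31 passed in edgeR, against 0.014% of all genes, while 9 of 31 had an unadjusted p below 0.05, all lower, against 12.7% of all genes. The groups did not overlap for 9 of the 31 genes, all lower in light-treated mice, against 20.8% of all genes in either direction. DESeq2 called Bsn and Pclo, and 79 of all 14318 genes. Of the 6 active zone genes, 5 were lower by point estimate, with a median of −1.62. Bsn was 1.78, 1.9 and 1.47 in 5xFAD and 0.5, 0.65 and 0.48 in 5xFAD + light, and Pclo 1.99, 1.03 and 1.78 and 0.48, 0.53 and 0.7, so that neither overlapped. Both are given because of these values. Their log2 fold changes were −1.69 (SE 0.37, adjusted p = 0.252) and −1.67 (SE 0.44, adjusted p = 0.265). In HPC the same comparison gave 0.04 and 0.10.

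Transcript length moved with this result. Over the 31 genes the log2 fold change in meninges had a Spearman rho of −0.51 with effective length, as a description across genes that share samples and libraries, and over all 14318 genes of −0.30. The 9 members of at least 5000 bases had a median of −0.65, and the 22 shorter ones 0.05. All long genes had a median of −0.40 and all shorter ones 0.10. In HPC rho over the 34 genes was 0.18 for the same comparison and 0.26 for 5xFAD against WT, where it was 0.30 and −0.28 over all genes. The 5000-base threshold was set with the values known, and the part of length was not tested.

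**Figure D5:**
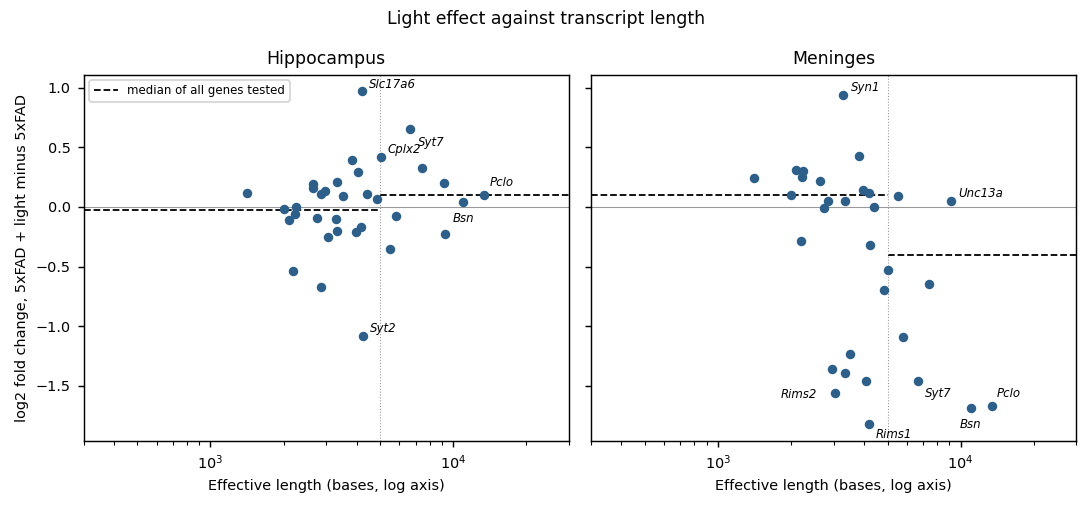
Log2 fold change of 5xFAD + light minus 5xFAD (y axis) against effective length in bases (log axis) for the 34 genes in hippocampus (left) and the 31 tested in meninges (right). Genes are placed at their hippocampus length in both panels. Dashed lines give the median of all genes tested on either side of 5000 bases, −0.03 and 0.10 in hippocampus and 0.10 and −0.40 in meninges, where Bsn and Pclo lie near −1.7. The meninges medians and the rho in the text used lengths computed in meninges.

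In sorted mLECs between 3 and 11 of the 34 genes had an FPKM above 0 in a sample, and together they took 0.000747% to 0.0348% of counts. A count of 0 in all 10 samples was found for 14 genes, Syn1, Syngr1, Sv2b, Syt4, Cplx1, Slc17a6 and Slc32a1 among them. By counting error alone this allows a level of up to 0.124 to 0.211 CPM (counts scaled to library size) in each sample, taking 3 counts as the limit. In the same samples lymphatic endothelial markers summed to 227 to 9930 FPKM, blood endothelial markers to 984 to 3192 and pineal markers to 0, while neuron markers reached 39.2. The lowest lymphatic sum, in WT replicate 2, was mostly Pecam1 (189.3), which all endothelium expresses. Over the 10 samples Lyve1 was at 0 in 2, Prox1 in 3, Pdpn in 4 and Ccl21a in 1.

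The highest members in mLECs by mean FPKM were Nsf, Vamp2, Rab3a, Unc13b and Stx1a, and each was at 0 in some samples. Nsf was 0, 62.7, 12.6 and 21.3 in WT, 38.0, 28.0 and 0.48 in 5xFAD and 9.15, 0.06 and 0.02 in 5xFAD + light. Vamp2 was 0, 0, 8.78 and 17.7, then 7.22, 26.8 and 0, and then 0, 0 and 41.5. Rab3a was 0, 0.08, 19.3 and 0, then 0, 61.7 and 0.1, and then 0, 19.0 and 0. Samples of one group thus ranged from 0 to well above 1 FPKM, and the highest Nsf value was in WT replicate 2, which was at 0 for Lyve1, Prox1 and Pdpn. Unc13b was 0.01, 0, 9.91 and 5.82, then 11.1, 1.19 and 23.4, and then 18.1, 3.71 and 0. Stx1a was at 41.1 in WT replicate 3 and 4.04 or below elsewhere. Only 6 genes could be tested, and none passed in edgeR or DESeq2 in either comparison (in edgeR, 0% of all 8188 genes in both, with 331 and 385 at an unadjusted p below 0.05 and 0 of the 6 in either). DESeq2 called 185 and 357 of the same genes. The biological coefficient of variation was 1.89 in mLECs against 0.198 in HPC and 0.35 in meninges.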

How the data were processed

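The members, lists and motifs were chosen with earlier results of these data known. The authors deposited estimated counts (expected counts) and FPKM values per gene from Smart-seq2 libraries, FPKM being scaled by the authors to transcript length and library size. The paper names fastp for filtering and RSEM for quantification. The submitters' processing notes name mm10, Trimmomatic, HISAT2, StringTie and DESeq2 instead. Which tools made the counts and FPKM, and so the effective lengths computed from them, is therefore uncertain. Positions come from GENCODE vM21. The mLECs are a separate table and were compared with the tissues as levels only.

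Counts were rounded and tested in R 4.3.3 with edgeR 4.0.16 (TMM, quasi-likelihood, 3 groups of a tissue in 1 fit) on genes that reached 1 FPKM in 3 or more samples of a tissue, adjusted by Benjamini-Hochberg over all tested genes, with 0.05 as threshold. Effective length was computed as count/(FPKM × total count), scaled to bases. The steps were tested on simulated data. Alternatives were RLE scaling, no filter, mean FPKM of at least 5, only the groups compared, a replicate block, the study's 2-fold threshold, DESeq2 1.42.0, limma 3.58.1 on log2(FPKM + 1) or log2(FPKM + 0.1), leaving out each replicate and, after seeing the data, leaving out the libraries that stood apart. No replicate pair agreed within sampling noise (chi-square per degree of freedom at least 9.25). Full values are given for members past the threshold in HPC, up to the 10 with the smallest p per comparison, and Syp. In meninges and mLECs they are given for the 5 highest members. Intervals and limits cover counting error only.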

Additional observations from a re-analysis of the deposited data

Results flagged for a closer look

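In 134 groups of 4 samples in which at least 1 sample reached 1 FPKM, over the 34 genes in HPC and WT meninges, 4 had a sample farther from the others than Dixon's 95% limit allows on the log2(FPKM + 1) scale, and chance gives about 1 in 20. In HPC, Cplx2 was 307.12 in WT replicate 3, below 367 to 377 in the other WT samples. In WT meninges, Syn1 was 29.21 in replicate 1, above 7.51 to 9.07 in the others, in the sample with the highest neuron markers. Replicate 2 there had the lowest values of Cplx2 at 4.87 and Slc17a6 at 5.53, against at least 10.2 and 13.0 in the others. The part of neighbouring tissue in these values was not tested. Under the comparisons of 5xFAD with WT and of light with 5xFAD, none of the 34 genes had groups that were separated one way in HPC and the other way in meninges.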

How the results depend on the processing

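Between 5xFAD and WT in HPC, the number of the 34 genes called, 1 as reported, was 0 with only the groups compared and with a 2-fold change required, 4 with DESeq2 and 3 without both libraries that stood apart. Of all 12981 genes, 1092 were called as reported, 780 with only the groups compared, 1721 with DESeq2 and 1128 without both libraries. The number of the 34 called ran from 0 to 7 when single replicates were left out, and that of all genes from 645 to 1689. For light against 5xFAD the number of the 34 was 2 with DESeq2, which called 641 of all genes. It was 0 with every other setting, single replicates left out included. For light against WT, 3 as reported, it was 7 with only the groups compared, 6 without the libraries that stood apart, 0 with a 2-fold change required and 0 to 1 without single replicates. Of all genes, 465 were called there as reported, 1120 with only the groups compared and 655 without those libraries. In meninges the number of members called was 2 with DESeq2 for light against 5xFAD, which called 79 of all 14318 genes, and 0 otherwise. Between the WT tissues it ran from 30 to 32 without single replicates.

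The median log2 fold change of 5xFAD against WT in HPC, −0.15, was −0.23 at a mean FPKM of at least 5 and ran from −0.23 to −0.10 without single replicates. For light against 5xFAD in meninges it ran from −0.54 to 0.19 around −0.01, with the lowest value without light-treated replicate 2. Syngr1 for 5xFAD against WT turned from −0.15 to 0.44 and 0.45 in limma on FPKM with pseudocounts of 1 and 0.1, since FPKM divides by the shorter effective length. Over the 54 named pairs of gene and comparison, 800 of 909 alternative values kept direction and side of the threshold, 67 lost it, 40 gained it and 2 reversed.

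Same-numbered samples did not deviate together (r from −0.24 to 0.09 in HPC and −0.32 to 0.26 in meninges). With the replicate block 1, 0 and 3 genes were called in the 3 HPC comparisons, as without it. In mLECs, edgeR without the filter on low values called 9 and 15 genes, none of the 34 among them. With 3 or 4 samples a group, single libraries decided most calls of the 34 genes in HPC, and the libraries of mLECs were as deep as those of HPC.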
